A study of Mus musculus with 3 samples.

Results

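The 39 *Hox* genes were followed through 3 droplet-based single cell RNA-sequencing (scRNA-seq) libraries of young mouse long bone. They are all rows of the gene table whose symbol is *Hox* with a cluster letter a to d and a number, 39 of 55422 gene rows, and the rule used no measured value. The *Hoxa* cluster gave 11 genes, the *Hoxb* cluster 10, and the *Hoxc* and *Hoxd* clusters 9 each, numbered by paralogue group from 1 to 13. Cells held 42742 *Hox* UMIs (unique molecular identifiers, each counting 1 captured transcript), and 37 of the 39 genes had at least 1 UMI in a cell.

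*Hox* genes encode homeodomain transcription factors that give cells of the embryo their position along the body axis. The genes of a cluster lie in the order in which they are used, so that low numbers are active early and near the head and high numbers late and near the tail. In the limb, paralogue groups at the posterior end pattern the segments: group 10 is required for the femur, group 11 for the tibia and fibula, and group 13 for the foot. HOX proteins bind DNA with partners of the TALE family (PBX, MEIS and PKNOX), and adult cells often keep the *Hox* pattern of the place they came from.

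All mice were males on the C57BL/6 background by their labels (C57BL/6J for the wild-type mice in the study's methods), aged 3 weeks and untreated. The libraries were made from femur and tibia: metaphyseal replicates 1 and 2, in which cells of the wild-type metaphysis were depleted of haematopoietic lineage, CD45+ and CD117+ cells, and 1 *Pdgfra-GFP* library of GFP+ cells sorted from the metaphysis and epiphysis of mice heterozygous for a nuclear histone H2B-GFP reporter at the *Pdgfra* locus, a mesenchymal gene. Femur and tibia went into the same suspension, so each level is a mixture of both bones, and nothing in the sources used here says how many animals a library holds or that the replicates came from separate animals. P-values therefore measure how far differences between populations vary across these libraries, a spread that may be technical. The single *Pdgfra-GFP* library has no replicate.

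After filtering, the libraries held 2389, 2011 and 11319 cells with medians of 6257, 6458 and 5354 UMIs per cell. They shared 0, 9 and 10 cell barcodes in pairs. Cells were put into populations by marker lists that hold no *Hox* gene, and populations are written "X-like" for that reason. Those used here are metaphyseal (mpMSC-like) and diaphyseal (dpMSC-like) mesenchymal stromal cells, septoclasts (SC-like), osteoblastic cells (OB-like), chondrocytes, endothelial cells (EC-like) and mural, haematopoietic, fibroblast-like and tenocyte-like cells. The metaphyseal libraries carry a stromal label, but 1122 of 2389 and 892 of 2011 of their cells were EC-like by markers, and 309 EC-like and 292 haematopoietic-like cells were also found in the sorted library. The 6 endothelial markers that set the EC-like gate summed to between 4874 and 6717 CPM in EC-like cells and between 9 and 81 CPM in mpMSC-like cells. This contrast follows from the gating and is no separate check of identity. Levels are given as CPM, the UMIs of a gene scaled to a common total for the pooled cells of a population in 1 library, with ± SD over libraries. Tests compare these pooled counts across libraries with edgeR, and a member is called where its p, adjusted over all genes tested, is under 0.05. They count transcript ends, so gene length does not enter, but how well each gene's end is captured was not tested.

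Promoter windows are shown for 5 of the genes that the comparisons turn on. RefSeq gave a promoter window for 22 of the 39 genes (GRCm38.p6), and the 250 bases upstream of the start are printed here 5′ to 3′ for *Hoxb8* and *Hoxb4*, which were higher in EC-like than in mpMSC-like cells, *Hoxa10* and *Hoxa11*, which were lower there, and *Hoxd9*, which was higher in chondrocyte-like than in mpMSC-like cells. Capitals mark matches, on either strand, to TGACAG (the MEIS and PKNOX motif), TGATNNAT (PBX with HOX) or TTTATNG (posterior HOX). Each gene is on the strand given with it: *Hoxb8* at chr11:96281655-96281904 (+), *Hoxb4* at chr11:96318017-96318266 (+), *Hoxa10* at chr6:52240855-52241104 (-), *Hoxa11* at chr6:52245811-52246060 (-) and *Hoxd9* at chr2:74697513-74697762 (+).
Hoxb8: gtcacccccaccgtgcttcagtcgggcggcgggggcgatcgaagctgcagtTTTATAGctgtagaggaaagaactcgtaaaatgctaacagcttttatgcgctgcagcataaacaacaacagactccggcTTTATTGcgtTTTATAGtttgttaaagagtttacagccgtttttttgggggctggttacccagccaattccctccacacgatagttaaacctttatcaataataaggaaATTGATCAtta
Hoxb4: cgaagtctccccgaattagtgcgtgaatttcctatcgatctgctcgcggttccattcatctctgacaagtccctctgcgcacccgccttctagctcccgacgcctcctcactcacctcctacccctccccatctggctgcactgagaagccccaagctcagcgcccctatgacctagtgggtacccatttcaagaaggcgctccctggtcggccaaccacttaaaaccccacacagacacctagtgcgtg
Hoxa10: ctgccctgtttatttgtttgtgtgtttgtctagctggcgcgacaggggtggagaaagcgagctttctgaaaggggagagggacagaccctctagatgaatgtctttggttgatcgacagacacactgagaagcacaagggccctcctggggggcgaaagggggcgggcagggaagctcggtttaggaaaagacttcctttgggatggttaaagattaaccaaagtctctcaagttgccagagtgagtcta
Hoxa11: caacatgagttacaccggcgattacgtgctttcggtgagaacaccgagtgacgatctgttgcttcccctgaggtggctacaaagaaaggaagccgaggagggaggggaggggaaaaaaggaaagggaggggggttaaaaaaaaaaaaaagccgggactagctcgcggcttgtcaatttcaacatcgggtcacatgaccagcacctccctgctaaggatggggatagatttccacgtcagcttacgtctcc
Hoxd9: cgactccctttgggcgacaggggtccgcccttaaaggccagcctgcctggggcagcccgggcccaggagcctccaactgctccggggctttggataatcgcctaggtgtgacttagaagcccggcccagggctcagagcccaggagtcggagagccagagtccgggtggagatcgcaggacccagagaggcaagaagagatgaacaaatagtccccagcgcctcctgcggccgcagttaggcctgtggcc
The *Hoxb8* window held 3 matches to TTTATNG and 1 to TGATNNAT, which did not overlap, and the other 4 windows held none of the 3 motifs. Of 32851 mouse promoter windows of this length, 15.9% held TGACAG, 7.68% TGATNNAT and 9.81% TTTATNG. Among 24 windows of 22 *Hox* genes, 2, 4 and 2 held them. These are matches of letters, and binding was not measured.

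*Hox* transcripts were found in every mesenchymal and vascular population and were at lower levels in haematopoietic-like cells. Their summed level was 423, 402 and 436 CPM in mpMSC-like cells of metaphyseal replicate 1, replicate 2 and the *Pdgfra-GFP* library, and 582, 549 and 539 CPM in dpMSC-like cells. It was 361, 369 and 255 CPM in OB-like cells, 286, 263 and 369 CPM in chondrocyte-like cells and 390, 385 and 425 CPM in EC-like cells. Mural-like cells, the smooth muscle cells and pericytes of the vessel wall, had 575, 575 and 655 CPM from 13, 17 and 67 cells. Haematopoietic-like cells had 29.4, 26.7 and 75.1 CPM, below all other populations of at least 10 cells in the metaphyseal libraries. They are the cells left after the depletion or the sort, so they do not stand for blood cells at large. Barcodes with 10 to 100 UMIs, which hold mostly free RNA, had 370, 379 and 340 CPM, so free RNA carried *Hox* transcripts. OB-like cells lay below these values in every library. In the metaphyseal libraries, chondrocyte-like cells lay below them and EC-like cells close above them. The part of free RNA in the level of any population was not tested. In pooled values, fewer transcripts per cell and fewer cells that express a gene cannot be told apart.

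**Figure D1:**
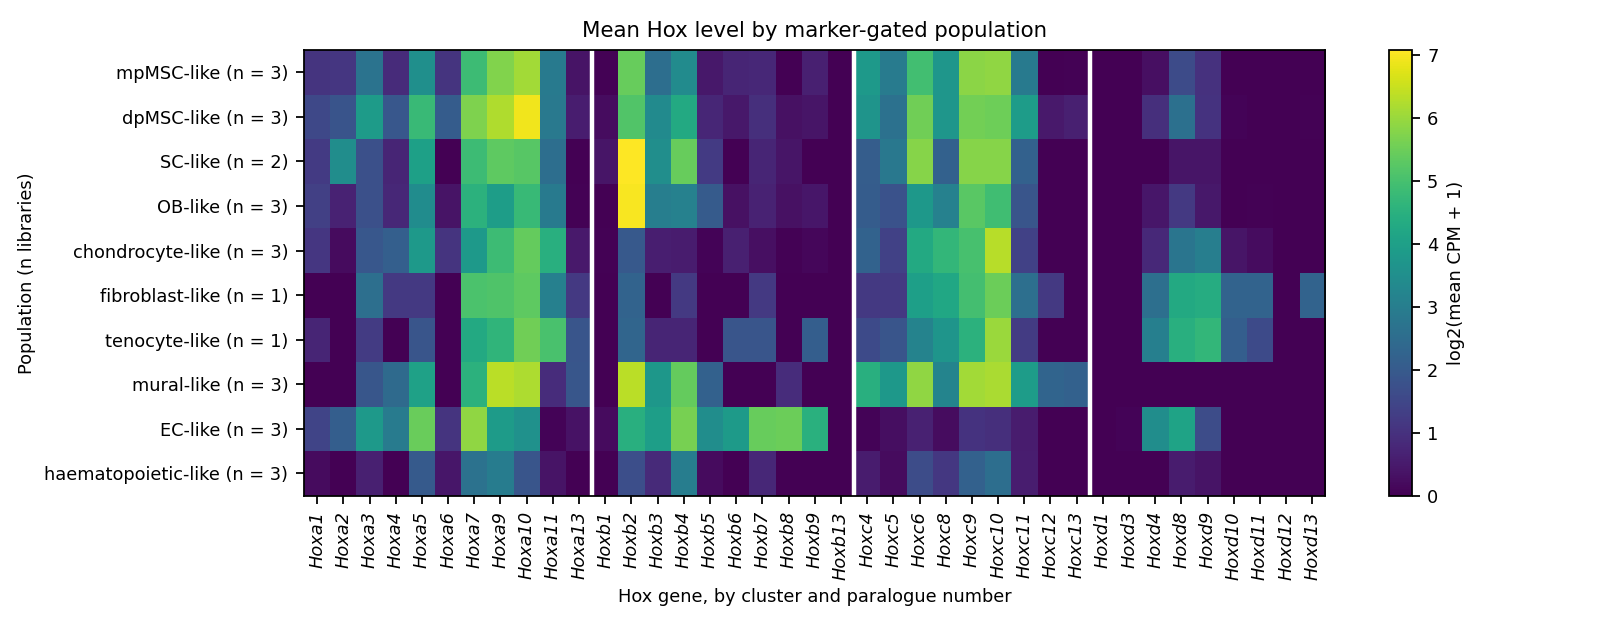
Heatmap of the mean level of the 39 *Hox* genes (columns, by cluster and number) in 10 marker-gated populations (rows, with n libraries), coloured as log2(mean CPM + 1) from the libraries that had at least 10 cells of the population. Mesenchymal and mural-like rows are bright for *Hoxa9*, *Hoxa10*, *Hoxc9* and *Hoxc10*, the EC-like row is bright for *Hoxb4* to *Hoxb9* and dark for the whole *Hoxc* cluster, and the haematopoietic-like row is dark.

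The clusters were used unequally. *Hoxc* genes gave 43.8% of *Hox* UMIs in mpMSC-like cells (range 38.8% to 51.4% over 3 libraries) and 52.1% in chondrocyte-like cells (48.9% to 57.8%), but 0.842% in EC-like cells (0.22% to 1.58%). *Hoxb* genes gave 53.7% in EC-like cells (52.4% to 54.6%), 43.8% in OB-like cells (34.3% to 50.5%) and 1.42% in chondrocyte-like cells (0% to 3.21%). The *Hoxd* cluster gave 0.767% in mpMSC-like, 0.684% in OB-like, 4.70% in chondrocyte-like and 7.10% in EC-like cells, and reached 18.7% and 18.5% in the tenocyte-like and fibroblast-like cells, which only the *Pdgfra-GFP* library held in numbers. By paralogue number, groups 9 to 11 carried 59.2% of *Hox* UMIs in mpMSC-like and 68.6% in chondrocyte-like cells, and groups 5 to 8 carried 57.5% in EC-like cells. Over the 5 mesenchymal populations, *Hoxb2* had the highest mean (68.3 CPM), followed by *Hoxa10* (58.3 CPM), *Hoxc10* (53.2 CPM), *Hoxc9* (45.2 CPM), *Hoxa9* (41.5 CPM), *Hoxc6* (32.1 CPM), *Hoxa7* (28.3 CPM), *Hoxb4* (15.7 CPM), *Hoxa5* (15.1 CPM), *Hoxc8* (12.1 CPM), *Hoxa11* (8.98 CPM) and *Hoxc4* (6.99 CPM). Each population counted equally in these means, among them SC-like cells with 11 cells in metaphyseal replicate 1 and 193 in the *Pdgfra-GFP* library. *Hoxb2* was not high in all 5, with a mean of 0 CPM in chondrocyte-like cells of the metaphyseal libraries and 8.87 CPM in those of the *Pdgfra-GFP* library. At the other end of the ranking, *Hoxb13* and *Hoxd12* had no UMI in any cell, and *Hoxc12*, *Hoxd1*, *Hoxd3* and *Hoxd13* had 8, 1, 2 and 4 UMIs in all cells.

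EC-like and mpMSC-like cells of the same suspensions had very different *Hox* patterns. Of the 28 members with enough counts to test, 23 differed, 13 higher and 10 lower in EC-like cells, where 44.7% of 14683 genes tested were called. The low-count filter used all 6 populations of the fit together, so a member could pass it through EC-like cells alone. All 23 differed in the same direction in each of the 3 libraries. For 22 of them the levels of the 2 populations did not overlap. Neither count was made over all genes tested, so they cannot be read as particular to *Hox* genes. The exception to the second count was *Hoxb3*. Its level was 18.8, 19.6 and 5.49 CPM in EC-like cells of metaphyseal replicate 1, replicate 2 and the *Pdgfra-GFP* library, and 8.14, 4.12 and 2.501 CPM in mpMSC-like cells.

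The middle of the *Hoxb* cluster marked the endothelial side. *Hoxb8*, a gene of the trunk region that is also known from haematopoietic progenitors, was at 39.2, 45.0 and 47.6 CPM in EC-like cells (44.0 ± 4.29, SD, n = 3) and had no UMI in the mpMSC-like cells of any library. Against a floor of 3 UMIs over that group, pooled from the 3 libraries (0.303 CPM), it was at least 145-fold higher. The edgeR test is of the fitted difference and not of this bound (edgeR adjusted p = 2.19e-09). *Hoxb8* passed the low-count filter through EC-like cells, with at most 9 UMIs in any other population of that fit. Its p is therefore no separate support for a high level there. The floor of each library alone was 4.88, 6.18 and 0.341 CPM. The bound therefore rests on the *Pdgfra-GFP* library, and the metaphyseal libraries alone give a much lower one. *Hoxb8* was seen in 20.4%, 23.2% and 19.7% of EC-like cells, in 0 of 1390 mpMSC-like cells of the *Pdgfra-GFP* library, and in 0 of 91 and 0 of 292 haematopoietic-like cells of metaphyseal replicate 1 and the *Pdgfra-GFP* library. The count for the 72 haematopoietic-like cells of metaphyseal replicate 2 is not given here, so absence from such cells is not claimed. Free RNA held *Hoxb8* at 17.97 and 18.1 CPM in the metaphyseal libraries and at 1.06 CPM in the *Pdgfra-GFP* library. Its neighbours followed: *Hoxb7* was at 42.2, 35.8 and 48.2 CPM in EC-like cells and at 0, 2.06 and 0.114 CPM in mpMSC-like cells. *Hoxb9*, *Hoxb6*, *Hoxb5* and *Hoxb4* rose by log2 fold changes of 7.27 ± 0.84 (SE), 4.69 ± 0.66, 3.31 ± 0.45 and 2.42 ± 0.35. *Hoxb2* did not pass the test (log2 fold change -0.85 ± 0.40, adjusted p = 0.0963).

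Outside the *Hoxb* cluster, *Hoxd4* rose by 4.24 ± 0.55 (SE) and *Hoxd8* by 2.57 ± 0.39 on the log2 scale, and *Hoxa4*, *Hoxa5* and *Hoxa7* by 2.06 ± 0.66, 1.80 ± 0.24 and 1.13 ± 0.21. *Hoxa3* rose by 0.91 ± 0.33 (adjusted p = 0.0307), a call that is lost without any 1 of the 3 libraries (adjusted p from 0.0828 to 0.159). *Hoxa4* is lost without metaphyseal replicate 1 (adjusted p = 0.142), and *Hoxb3* without replicate 2 (adjusted p = 0.0723). The direction turned within the *Hoxa* cluster. *Hoxa9* was at 13.2, 16.2 and 12.2 CPM in EC-like cells against 50.5, 63.8 and 42.1 CPM in mpMSC-like cells, *Hoxa10* fell by 2.63 on the log2 scale, and *Hoxa11* had 1 UMI among all EC-like cells against 73 in mpMSC-like cells.

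The *Hoxc* genes were close to silent in EC-like cells. All 7 tested (*Hoxc4*, *Hoxc5*, *Hoxc6*, *Hoxc8*, *Hoxc9*, *Hoxc10* and *Hoxc11*) fell, with log2 fold changes between -7.10 and -5.12. *Hoxc9* stood at 0.286, 1.05 and 1.83 CPM in EC-like cells and at 44.0, 49.4 and 77.2 CPM in mpMSC-like cells. *Hoxc10*, a hindlimb gene, stood at 0.43, 0.524 and 1.83 CPM against 60.2, 41.2 and 75.7 CPM. The EC-like cells of the sorted library lay above those of the metaphyseal libraries for both genes, and the free RNA of that library held *Hoxc9* at 43.5 CPM.

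**Figure D2:**
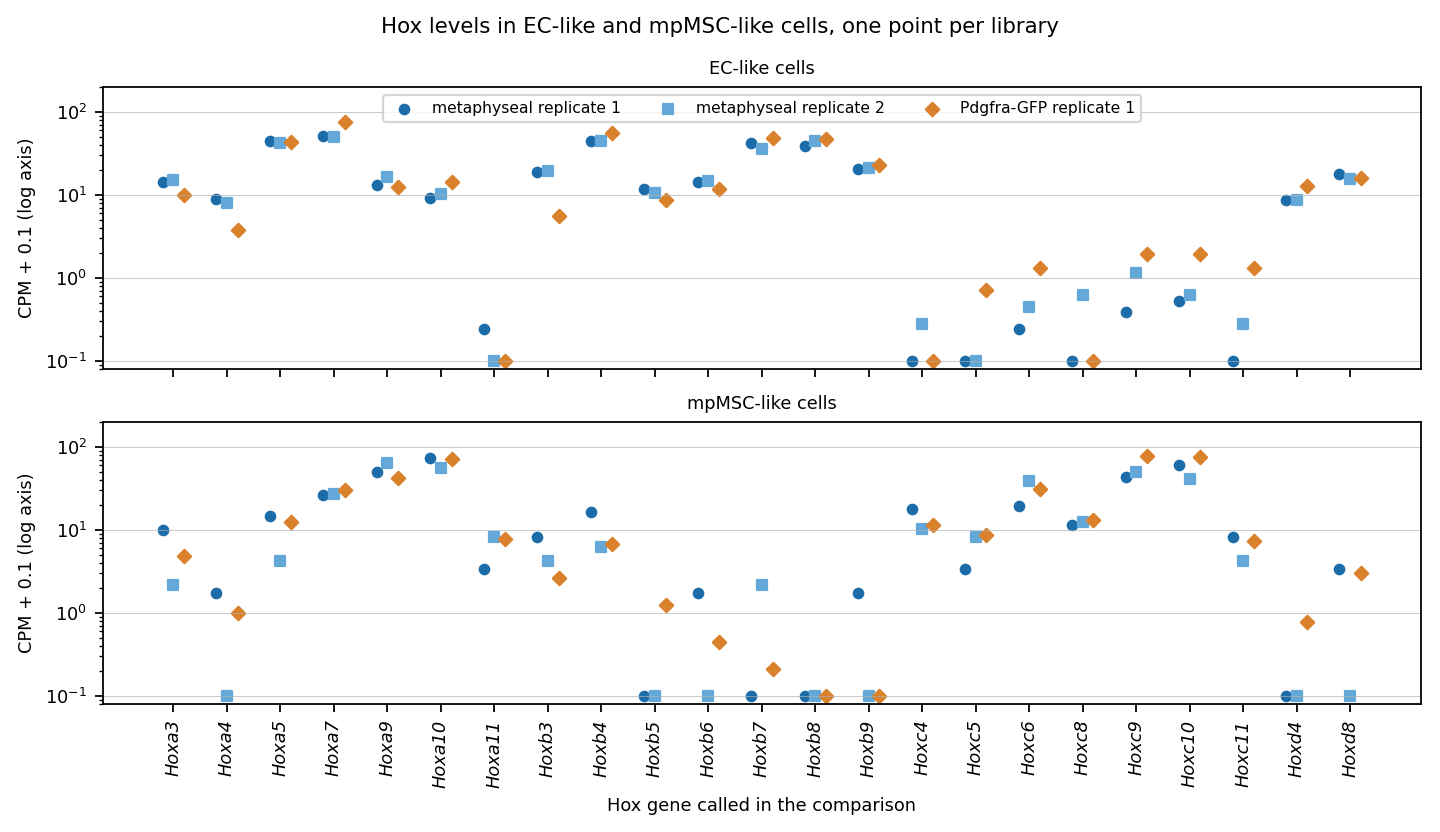
Level of the 23 *Hox* genes that differed between EC-like (top) and mpMSC-like cells (bottom), as CPM + 0.1 on a log axis, with 1 point per library. *Hoxb5* to *Hoxb9* sit above 8 CPM in every EC-like point, and the 7 *Hoxc* genes sit below 2 CPM there and above 3 CPM in every mpMSC-like point.

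Among endothelial cells, *Hoxb8* was higher in the bone marrow subtype than in the metaphyseal and arterial subtypes. Arterial (aEC-like), metaphyseal (mpEC-like) and bone marrow (bmEC-like) subtypes were set apart in the 2 metaphyseal libraries, with 80, 623 and 273 cells in replicate 1 and 67, 495 and 223 in replicate 2. *Hoxb8* was at 67.1 and 69.8 CPM in bmEC-like cells, 26.0 and 34.1 CPM in mpEC-like cells and 24.7 and 18.9 CPM in aEC-like cells. The EC-like cells given no subtype, 146 and 107 in number, held it at 59.9 and 66.1 CPM. It fell by 1.22 ± 0.16 (SE) in mpEC-like and by 1.61 ± 0.28 in aEC-like cells on the log2 scale against bmEC-like cells. Of 16 members tested, 4 differed between mpEC-like and bmEC-like cells, where 35% of 10166 genes tested were called, and 4 between aEC-like and bmEC-like cells, where 34% were called. The share of members called was therefore not above that of all genes.

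The *Pdgfra-GFP* library was left out of this fit on the assumption that its sort had removed endothelial cells, but it held 82 aEC-like, 126 mpEC-like and 64 bmEC-like cells. Its *Hoxb8* was at 39.6, 31.7 and 101 CPM in them, from 16, 22 and 35 UMIs, so bmEC-like cells were again the highest of the 3 subtypes. With this library added, a fit chosen after seeing the data, 14 members were tested and 4 were called in each comparison, with *Hoxb8* lower by 1.31 in mpEC-like and by 1.52 in aEC-like cells on the log2 scale (edgeR adjusted p = 2.57e-06 and 4.6e-05). The share of all genes called in this fit is not given here, so the number of calls is not set against it.

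Beside *Hoxb8*, *Hoxa5* (36.8 and 34.1 against 61.4 and 61.5 CPM) and *Hoxb4* (39.8 and 37.6 against 56.3 and 62.3 CPM) were lower in mpEC-like than in bmEC-like cells. *Hoxb9* was higher, at 24.5 and 24.5 CPM against 13.4 and 10.5 CPM. *Hoxb7*, next to *Hoxb8* in the cluster, did not pass the test, at 42.3 and 36.6 CPM in mpEC-like and 38.997 and 31.5 CPM in bmEC-like cells, a log2 difference of 0.14 ± 0.17 (adjusted p = 0.57). In aEC-like cells, *Hoxd8* stood at 45.8 and 39.8 CPM against 14.7 and 12.8 CPM in bmEC-like cells, a rise of 1.65 ± 0.31 on the log2 scale. *Hoxd4* (1.57 ± 0.55) and *Hoxa7* (0.57 ± 0.21) were higher there too, and these 2 calls were lost with DESeq2 (adjusted p = 0.156 and 0.208). With DESeq2, 1 of the 4 mpEC-like calls (*Hoxb8*) and 2 of the 4 aEC-like calls (*Hoxb8* and *Hoxd8*) held.

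**Figure D3:**
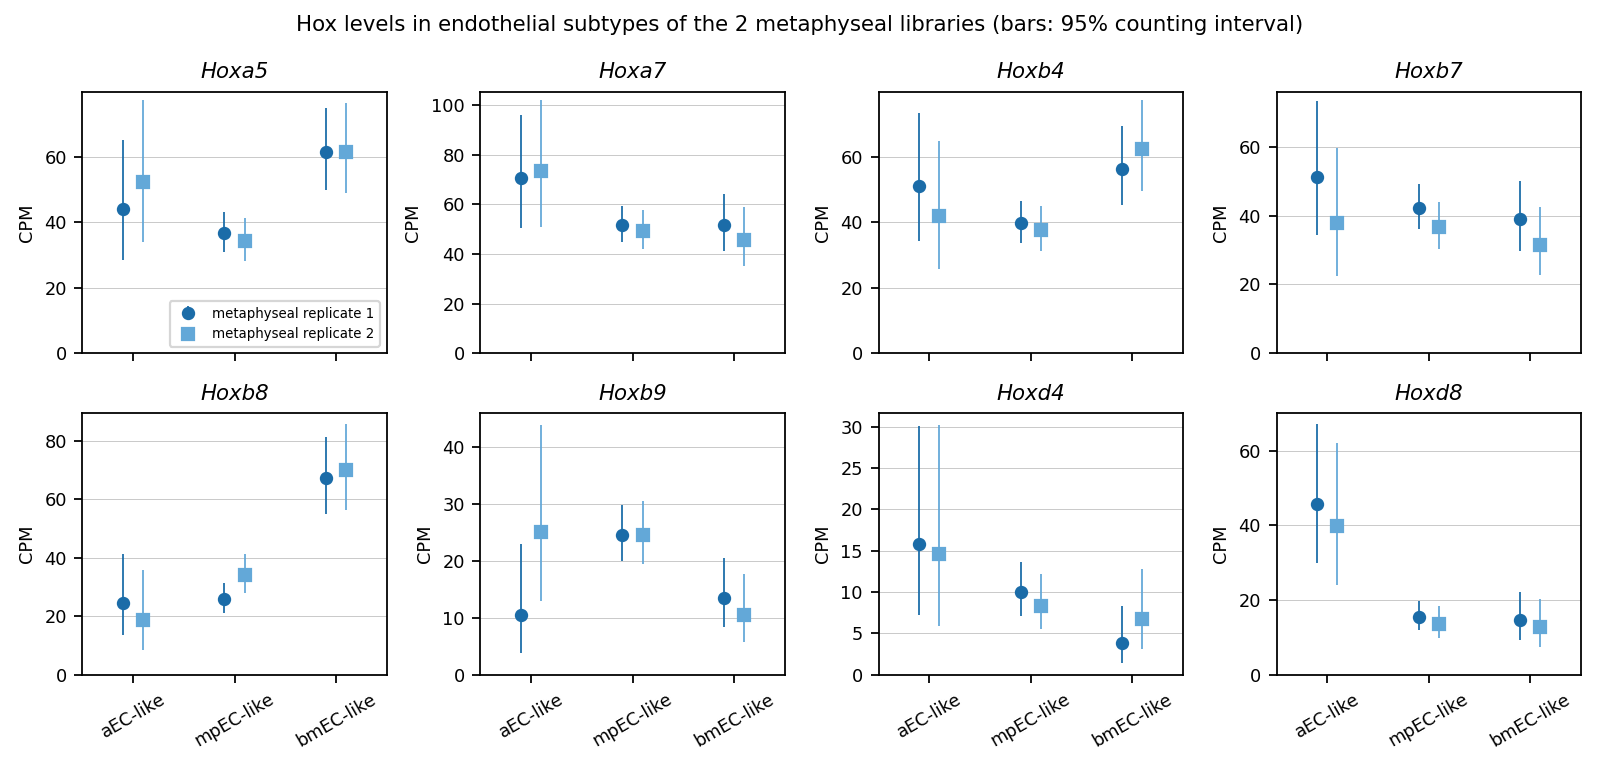
Level in CPM of 8 *Hox* genes in aEC-like, mpEC-like and bmEC-like cells of metaphyseal replicates 1 and 2 (points, with 95% Poisson intervals for counting error as bars). *Hoxb8* points of bmEC-like cells lie above 67 CPM and those of the other subtypes below 35 CPM, and *Hoxd8* points are highest in aEC-like cells.

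Within the stroma, dpMSC-like cells, gated by markers such as *Lepr* and *Cxcl12*, had more *Hoxa* transcripts than mpMSC-like cells. Diaphyseal is the study's name for such cells. No library was dissected from the shaft, so this is not a comparison of shaft with metaphysis. Of 28 members tested, 6 differed, where 26.8% of all genes tested were called, so the share called was not above that of other genes. The low-count filter used all populations of the fit. Some of the 28 therefore had few UMIs in these 2 populations, such as *Hoxb8* with 9 against none, and could hardly be called. *Hoxa10*, which patterns the femur, was at 120, 117 and 126 CPM in dpMSC-like cells against 73.3, 55.6 and 71.6 CPM in mpMSC-like cells, a rise of 0.79 ± 0.15 (SE) on the log2 scale (adjusted p = 0.000647). *Hoxa5* rose by 1.04 ± 0.23, *Hoxa3* by 0.87 ± 0.30, *Hoxa7* by 0.86 ± 0.21 and *Hoxa9* by 0.54 ± 0.17. *Hoxc10* fell by 0.53 ± 0.18, with 40.4, 46.5 and 46.4 CPM against 60.2, 41.2 and 75.7 CPM, where the levels overlap and the direction was not the same in all 3 libraries. *Hoxc10* was also not called when library totals replaced the TMM scaling factors (adjusted p = 0.0868). Without the *Pdgfra-GFP* library, which holds 1390 of the mpMSC-like cells against 57 and 49 in the metaphyseal libraries, 2 of the 6 calls (*Hoxa5* and *Hoxa10*) held, and without the library block 1 member was called. *Hoxa3* was lost without any 1 library (adjusted p from 0.0762 to 0.23), and *Hoxa9* and *Hoxc10* were lost without metaphyseal replicate 1 (adjusted p = 0.19 and 0.282).

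*Hoxb2* was higher in OB-like than in mpMSC-like cells. This gene, best known from hindbrain segments, was at 161, 146 and 76.5 CPM in OB-like cells and at 47.2, 57.7 and 21.5 CPM in mpMSC-like cells, so that it was higher in every library and the levels did not overlap. The rise was 2.58 ± 0.36 (SE) on the log2 scale (adjusted p = 1.82e-05), and 62.6%, 55.9% and 31.9% of OB-like cells held a UMI of it at median depths of 21712, 20781 and 11426 UMIs per cell. It was listed at 199 and 68.9 CPM in SC-like cells, from 11 and 193 cells, at 46.3, 36.9 and 21.3 CPM in dpMSC-like cells and at 0, 0 and 8.87 CPM in chondrocyte-like cells. Mural-like cells had 34.5, 74.0 and 134 CPM, from 3, 9 and 52 UMIs. Levels in OB-like cells lie above those of mpMSC-like, dpMSC-like, EC-like and chondrocyte-like cells in all libraries, but below those of SC-like cells in metaphyseal replicate 1 and of mural-like cells in the *Pdgfra-GFP* library.

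In OB-like cells, 7 of 28 members differed from mpMSC-like cells, 4 higher and 3 lower, where 36.9% of all genes tested were called, 19.3% higher and 17.6% lower. *Hoxb3* (1.13 ± 0.33, SE) and *Hoxb5* (2.31 ± 0.46) rose with *Hoxb2*, and *Hoxb5* had 2.92, 3.89 and 2.41 CPM against 0, 0 and 1.14 CPM. *Hoxb8* was also called, but on 7 UMIs in OB-like cells against none, under the floor of the mpMSC-like group, so no fold is given. *Hoxa9* (14.4, 15.8 and 13.2 CPM against 50.5, 63.8 and 42.1 CPM), *Hoxa10* and *Hoxc4* fell, by 0.95 ± 0.18, 0.57 ± 0.16 and 1.27 ± 0.28. These folds depend on the scaling: TMM factors place the median gene near 0, and with library totals, the scale of the CPM values, all genes shifted by a median of -0.83 (log2). Then 12 members were called, 2 higher (*Hoxb2*, 1.76, adjusted p = 0.000416, and *Hoxb5*, 1.45, adjusted p = 0.0135) and 10 lower, *Hoxb3* (0.30, adjusted p = 0.434) was not called, and 10.3% of all calls were higher in place of 52.2%. The share of all genes called in that fit is not given here, so the 12 are not read as a result about *Hox* genes. Without the library block, 4 members were called. Without the *Pdgfra-GFP* library, 4 were also called, and *Hoxb3* (adjusted p = 0.103), *Hoxb8* (0.642) and *Hoxc4* (0.0563) were not. *Hoxa10* was lost without metaphyseal replicate 1 (adjusted p = 0.155), and *Hoxb3* and *Hoxb8* without replicate 2 (adjusted p = 0.0695 and 0.127).

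Septoclasts, the cartilage-resorbing cells at the growth plate that the study set out to describe, were too few for a firm statement. Sums of at least 10 SC-like cells came from 2 libraries. None of 28 members passed the edgeR test against mpMSC-like cells, where 5.01% of all genes tested did, 2.88% higher and 2.13% lower. The low-count filter used all populations of the fit, so some of the 28 had too few UMIs here to be called. For example, *Hoxd4* had none in SC-like and 6 in mpMSC-like cells, and *Hoxb8* had 1 and none. There were 6 members with an unadjusted edgeR p under 0.05, and DESeq2 called 0. The share of all genes under that unadjusted threshold is not given here, so the 6 are not read as a result. *Hoxb2* (log2 fold change 1.56 ± 0.47, SE, adjusted p = 0.0714) and *Hoxa10* (-0.76 ± 0.23, adjusted p = 0.0674) came closest. *Hoxc9* was at 54.2 and 54.5 CPM, *Hoxc10* at 63.2 and 45.3 CPM and *Hoxa9* at 36.1 and 42.0 CPM in SC-like cells, levels inside or near the mpMSC-like range of 44.0 to 77.2, 41.2 to 75.7 and 42.1 to 63.8 CPM. *Hoxb2* and *Hoxa10* did not pass although their differences were larger than their SE. At this depth, a missing call therefore does not show that levels were equal.

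Chondrocyte-like cells had more *Hoxa11*, *Hoxd9* and *Hoxc10* than mpMSC-like cells and little of the *Hoxb* cluster. Groups 9 to 11 together were lower in each library. They summed to 200, 174 and 256 CPM against 243, 222 and 283 CPM in metaphyseal replicate 1, replicate 2 and the *Pdgfra-GFP* library. Over the metaphyseal libraries, *Hoxa9*, *Hoxa10* and *Hoxc9* averaged 27.3, 36.7 and 24.8 CPM, against 57.2, 64.4 and 46.7 CPM in mpMSC-like cells. These genes were also lower in the *Pdgfra-GFP* library and were not called. Of 28 members, 11 differed from mpMSC-like cells, 5 higher and 6 lower, where 37.1% of all genes tested were called, so the share of members called was close to that of all genes. *Hoxa11*, required for the bones of the lower leg, was at 26.3, 17.98 and 18.7 CPM against 3.26, 8.24 and 7.62 CPM, a rise of 1.92 ± 0.34 (SE) on the log2 scale (adjusted p = 0.00022). *Hoxd9* (3.28, 9.68 and 8.40 CPM against 1.63, 0 and 1.36 CPM) rose by 3.24 ± 0.59, *Hoxc8* by 1.72 ± 0.32, *Hoxd8* by 1.41 ± 0.42 and *Hoxc10* by 0.81 ± 0.19. *Hoxc8* and *Hoxc10* levels overlap between the populations, at 11.5, 24.9 and 38.3 CPM against 11.4, 12.4 and 13.1 CPM for *Hoxc8*. With only these 2 populations in the fit, 8 members passed the filter on low counts and 2 were called, *Hoxa11* (adjusted p = 0.0035) and *Hoxc10* (adjusted p = 0.00806). *Hoxb2* was not called there (adjusted p = 0.0776), and the other calls given here were not tested in it.

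The low-numbered *Hoxb* genes were lower in the same cells. *Hoxb2* fell by 1.53 ± 0.45 (SE), *Hoxb3* by 3.32 ± 0.66 and *Hoxb4* by 2.08 ± 0.53 on the log2 scale, and *Hoxb4* had no UMI in the 39 and 36 chondrocyte-like cells of the metaphyseal libraries and 1.39 CPM in the *Pdgfra-GFP* library. *Hoxc4* and *Hoxc11* fell by 1.24 ± 0.31 and 1.55 ± 0.47. *Hoxb5* was called on 2 UMIs against 10, both from the *Pdgfra-GFP* library. With library totals as the scale, all genes shifted by a median of -0.43 (log2), *Hoxd8* (0.96, adjusted p = 0.0641) and *Hoxc10* (0.40, adjusted p = 0.117) were no longer called, 3 members were higher and 12 lower, and 25.5% of all calls were higher in place of 51.2%. How many of all genes were called in that fit is not given here, so these counts of members are not set against it. The *Pdgfra-GFP* library holds 1709 of the chondrocyte-like cells, and without it 3 members (*Hoxa11*, *Hoxb2* and *Hoxb4*) were called. Without metaphyseal replicate 1, *Hoxb2* (adjusted p = 0.0558) and *Hoxb5* (0.0714) were lost, and without replicate 2 *Hoxb2* (0.0538), *Hoxb5* (0.0694) and *Hoxd8* (0.0531). The markers of tendon cells summed to between 1366 and 3015 CPM in chondrocyte-like cells and between 245 and 321 CPM in mpMSC-like cells, and their part in these differences was not tested.

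**Figure D4:**
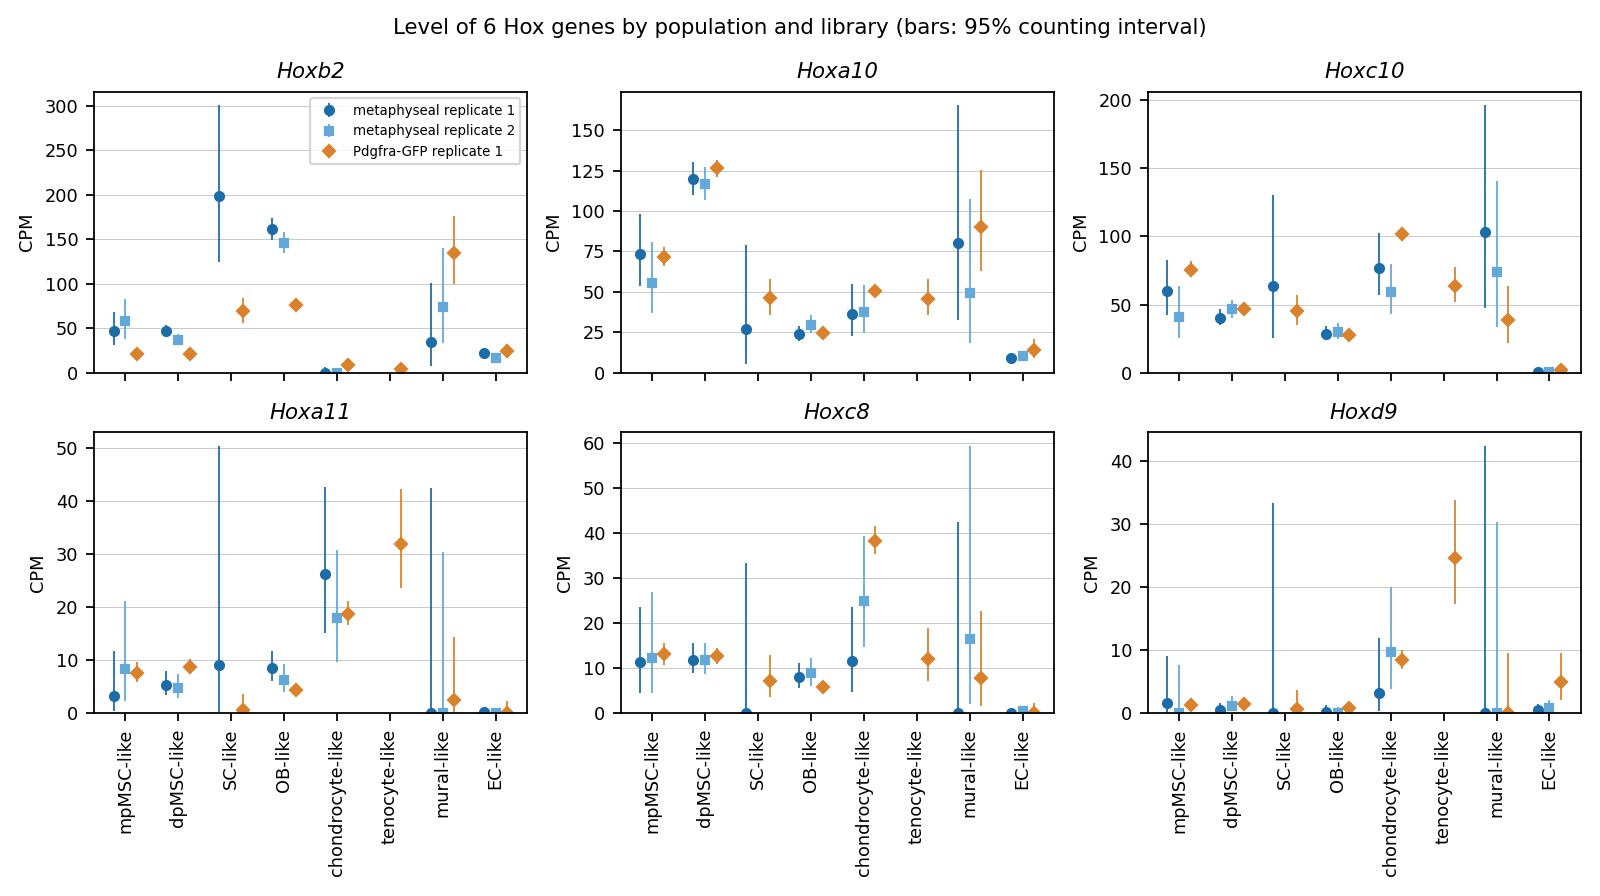
Level in CPM of *Hoxb2*, *Hoxa10*, *Hoxc10*, *Hoxa11*, *Hoxc8* and *Hoxd9* in 8 populations, with 1 point per library and 95% Poisson intervals for counting error. *Hoxb2* is above 68 CPM in every OB-like and SC-like point and at most 8.87 CPM in chondrocyte-like cells, *Hoxa10* peaks in dpMSC-like cells, and of the populations plotted, *Hoxa11* and *Hoxd9* have their highest means in tenocyte-like and chondrocyte-like cells.

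Tenocyte-like and fibroblast-like cells, with 212 and 138 cells in the *Pdgfra-GFP* library, have no replicate and no test. *Hoxd8* and *Hoxd9* stood higher there than in the other 8 populations of the heatmap. *Hoxd9* was at 24.6 CPM in tenocyte-like cells (95% Poisson interval 17.3 to 33.9) and 20.02 CPM in fibroblast-like cells (11.4 to 32.5), against 8.40 CPM in chondrocyte-like and 1.36 CPM in mpMSC-like cells of the same library. *Hoxd8* was at 21.3 and 18.8 CPM, against 15.9 CPM in EC-like cells of the same library, and its intervals are not given here. The aEC-like subtype, part of the EC-like row, held more *Hoxd8*. It had 24.8 CPM from 10 UMIs in that library and a mean of 42.8 CPM in the metaphyseal libraries. *Hoxa11* reached 31.9 CPM in tenocyte-like cells (23.5 to 42.3). *Hoxd10* had 5 and 3 UMIs in tenocyte-like and fibroblast-like cells, of 37 in all cells, and *Hoxd13* had 3 of its 4 UMIs in fibroblast-like cells, so that these values rest on few UMIs. The interval covers counting error only.

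Mural-like cells held *Hoxc* transcripts, unlike EC-like cells. Their *Hoxc9* was at 57.5, 65.7 and 77.3 CPM, *Hoxc10* at 103, 74.0 and 38.7 CPM and *Hoxa9* at 69.0, 74.0 and 95.4 CPM. *Hoxb7*, *Hoxb9* and all *Hoxd* genes had no UMI in mural-like cells of any library, and *Hoxb8* had 1. *Hoxb4* was at 46.0, 24.7 and 54.1 CPM in mural-like cells and at 44.1, 44.9 and 54.9 CPM in EC-like cells. With 13 and 17 cells in the metaphyseal libraries, these levels are given as a description.

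Within a population, some *Hox* genes were found in the same cells. Pairs of members with a UMI in at least 3% of cells were examined in libraries with at least 150 cells of the population, as a description of sparse counts with no test. Of 66 pairs in OB-like cells, 2 had shares with separate 95% binomial intervals in all 3 libraries, and both joined *Hoxb2* to its neighbours in the cluster. *Hoxb3* was found in 24.2%, 26.7% and 8.59% of OB-like cells with *Hoxb2* and in 1.27%, 1.20% and 1.05% of those without it. *Hoxb4* was found in 21.2%, 26.7% and 12.2% against 1.27%, 2.41% and 0.965%. Median depth was alike on both sides in the metaphyseal libraries, at 21704 against 21712 and 20762 against 20800 UMIs, and was 12166 against 10953 UMIs in the *Pdgfra-GFP* library.

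In dpMSC-like cells, *Hoxb2* and *Hoxb4* were also the only pair of 66 with separate intervals in every library, with *Hoxb4* in 18.6%, 19.3% and 16.3% of cells with *Hoxb2* against 9.59%, 8.15% and 3.61% of those without. Median depth with and without *Hoxb2* was 6098 against 5613, 5969 against 5735 and 4358 against 3575 UMIs, and its part was not tested. None of 91 pairs in EC-like cells had separate intervals in all 3 libraries. By the annotation of the same build (GRCm38, Gencode M21), *Hoxb4* (chromosome 11, 96318267 to 96321638), *Hoxb3* (96323326 to 96347930) and *Hoxb2* (96350525 to 96354012) share no exonic bases on their strand. *Hoxb2* and *Hoxb3* share 27.3% and 52.9% of theirs with the antisense *Hoxb3os*. Whether reads were counted by strand is not stated in the sources used here, so *Hoxb3* and *Hoxb3os* counts cannot be fully separated.

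In chondrocyte-like cells of the *Pdgfra-GFP* library, cells with *Hoxa11* differed from those without. *Hoxc8* was found in 13.8% of the 232 cells with *Hoxa11* (95% binomial interval 9.63 to 18.9) and in 27.8% of the 1477 without it (25.5 to 30.1). *Hoxc6* (7.76% against 16.4%), *Hoxc9* (20.7% against 29.9%) and *Hoxb2* (1.72% against 7.24%) were also less frequent with *Hoxa11*, and *Hoxd9* was more frequent (11.2% against 5.21%), at median depths of 8568 and 8527 UMIs. *Hoxb2* and *Hoxc8* went together, with *Hoxc8* in 47.7% of cells with *Hoxb2* and 24.3% of those without, at 10871 and 8384 UMIs. Of 78 pairs, 17 had separate intervals, 13 more and 4 less often together, and the 4 all included *Hoxa11*. In most of the 13, cells with the first gene were deeper, as for *Hoxc8* with *Hoxc9* (medians of 10010 against 8069 UMIs). Deeper cells show more genes of any kind, and the part of depth in these counts was not tested. The metaphyseal libraries had too few chondrocyte-like cells for the same count, and which bone or growth plate zone a cell came from is not recorded.

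**Figure D5:**
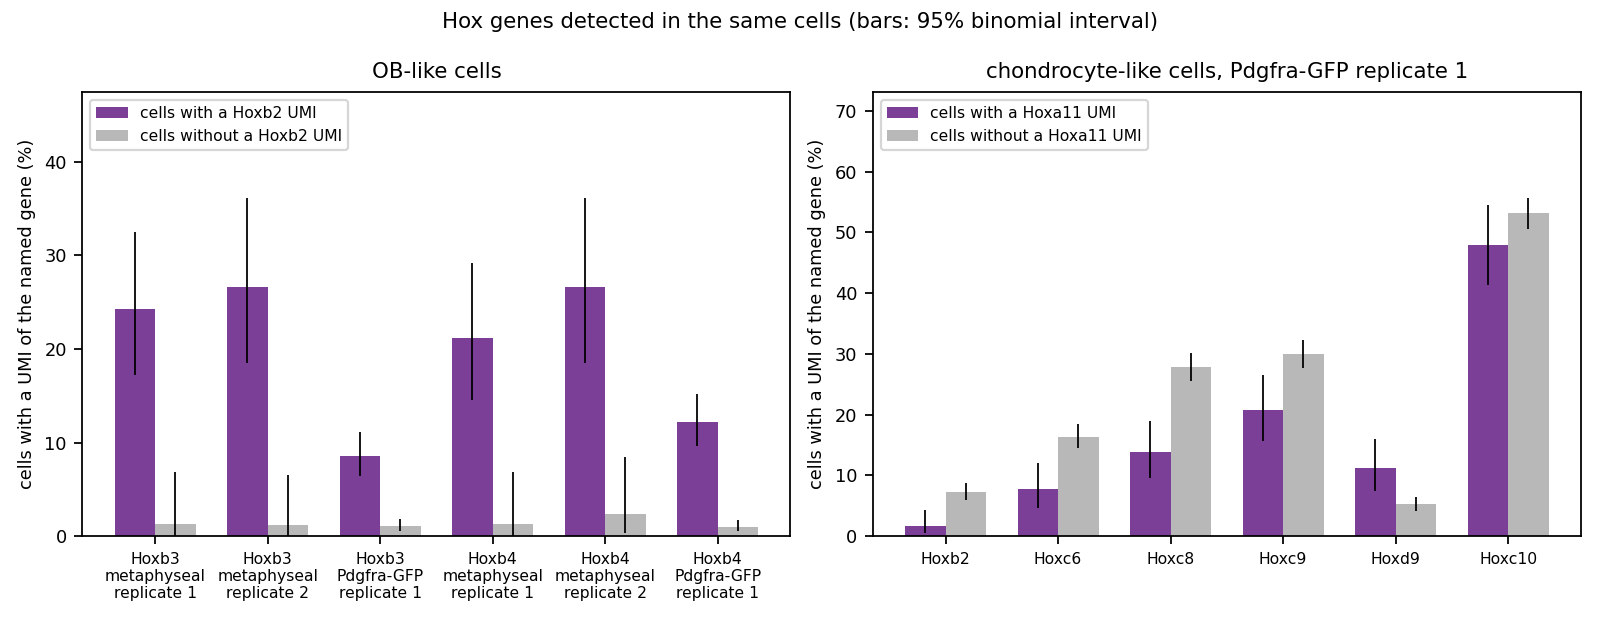
Share of cells (%) with a UMI of the gene named on the x axis, among cells with (purple) and without (grey) a UMI of *Hoxb2* in OB-like cells of each library (left) or of *Hoxa11* in chondrocyte-like cells of the *Pdgfra-GFP* library (right). Bars show 95% binomial intervals for counting error. *Hoxb3* and *Hoxb4* are found in at most 2.41% of OB-like cells without *Hoxb2*, and *Hoxb2*, *Hoxc6*, *Hoxc8* and *Hoxc9* are less frequent in cells with *Hoxa11*.

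The identity genes of the limb went with the mesenchymal pattern. *Pitx1*, which specifies the hindlimb, was at 26.0, 28.8 and 38.5 CPM in mpMSC-like cells and at 0, 0 and 3.05 CPM in EC-like cells. *Tbx5*, a forelimb gene, was at most 0.455 CPM in mpMSC-like cells. *Tbx4*, the hindlimb counterpart of *Tbx5*, was also low, at 0, 6.18 and 2.73 CPM in mpMSC-like cells and 9.96 CPM in tenocyte-like cells. Of 26 limb patterning genes, 19 were tested, and 13 fell and 1 rose in EC-like cells, where 44.7% of all genes tested were called, with *Shox2* (319, 288 and 269.5 CPM against 1.15, 2.44 and 4.88 CPM) and *Prrx1* (361, 332 and 256 CPM against 1.86, 3.32 and 8.55 CPM) among those that fell. Their median log2 fold change was -4.95, beside 0.04 over all genes tested. In chondrocyte-like cells, where 37.1% of all genes tested were called, 3 rose and 7 fell, *Pitx1* rising by 0.81 ± 0.31 (SE), a call lost with library totals as the scale (adjusted p = 0.34), and *Prrx1* falling by 3.18 ± 0.53. *Shox2* fell by 0.95 ± 0.20 in dpMSC-like and by 0.53 ± 0.20 in OB-like cells.

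Some of the DNA-binding partners were also lower in EC-like cells. Of 9 TALE genes, 8 were tested, and 4 fell and 1 rose in EC-like cells against the 44.7% of all genes: *Meis1* (17.9, 22.7 and 11.7 CPM in mpMSC-like against 0.143, 0.349 and 0.611 CPM in EC-like cells), *Meis2*, *Meis3* and *Pknox2* fell, and *Pbx2* rose by 0.90 ± 0.20 (SE). In OB-like cells *Meis2* fell by 1.60 ± 0.47, and in chondrocyte-like cells *Meis1* fell by 1.61 ± 0.27. Of 17 Polycomb, Trithorax and other upstream regulators, 14 were tested and 4 differed in EC-like cells, 3 rising and 1 falling, a share below the 44.7% of all genes. *Rnf2*, a Polycomb subunit, was lower in mpEC-like (by 1.44 ± 0.14) and aEC-like cells (by 2.30 ± 0.27) than in bmEC-like cells.

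Of 17 rows of non-coding RNAs of the clusters, 7 were tested against mpMSC-like cells, and 3 rose and 1 fell in EC-like cells, where 44.7% of all genes tested were called. *Hoxd3os1*, antisense within the *Hoxd* cluster, was at 12.7, 13.4 and 10.4 CPM in EC-like and 1.63, 0 and 1.48 CPM in mpMSC-like cells, and *Hoxa11os*, antisense to *Hoxa11*, fell by 4.63 ± 0.67 (SE). *Hoxa11* shares 35.0% of its exonic bases with *Hoxa11os*, so without a statement on strand their counts cannot be fully separated. *Hoxa11os* was at 55.1 CPM in the tenocyte-like cells, beside 31.9 CPM of *Hoxa11*. *Halr1* was at 2.01, 2.44 and 17.1 CPM in EC-like cells, and 1 UMI of it was found in mpMSC-like cells. *Hotairm1*, at the start of the *Hoxa* cluster, rose by 0.92 ± 0.26 in dpMSC-like cells. In OB-like cells its change of 0.72 ± 0.26 turned to -0.12 (adjusted p = 0.72) with library totals as the scale.

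The *Pdgfra-GFP* library differed from the metaphyseal libraries for several members. *Hoxb2* was at 52.4, 41.6 and 154 CPM in mpMSC-like, dpMSC-like and OB-like cells on average over the metaphyseal replicates and at 21.5, 21.3 and 76.5 CPM in the *Pdgfra-GFP* library, or 2.44, 1.95 and 2.01 times as high. It went the other way in EC-like cells (19.6 against 23.8 CPM) and chondrocyte-like cells (0 against 8.87 CPM). *Hoxb3* was 5.55, 2.89 and 3.49 times as high in dpMSC-like, OB-like and EC-like cells of the metaphyseal libraries. *Hoxc8* (18.2 against 38.3 CPM) and *Hoxc9* (24.8 against 43.9 CPM) were lower in their chondrocyte-like cells. Free RNA held *Hoxb3* at 9.86 and 19.3 CPM in the metaphyseal libraries and at 2.65 CPM in the *Pdgfra-GFP* library. Dissected region, genotype, sort, free RNA and library cannot be told apart here, and the fits carry a term for the library.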

How the data were processed

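Counts of UMIs per gene and barcode from 3 10x Chromium 3′ libraries were used. The authors trimmed reads with fastp 0.20, aligned and counted them with STARsolo (STAR 2.7.3a) on mm10 with Gencode M23 and the H2B-GFP sequence, and deposited raw counts for all barcodes, with no cell filter or normalization. The deposited totals were 25243314, 22082735 and 91747759 UMIs. A barcode was taken as a cell from 1500 detected genes (metaphyseal) or 1000 (*Pdgfra-GFP*) upward, with no more than 15% mitochondrial and 30% ribosomal UMIs. Scrublet in scanpy 1.11.5 called 25, 19 and 172 doublets, which were kept. Of 14 marker lists, that of proliferating cells was not scored. Each cell went to the best of the others if its score was at least 0.25 and led by 0.05. The members, lists and tests were chosen with earlier results of these data known.

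Population sums of at least 10 cells were tested with edgeR 4.0.16 (quasi-likelihood, TMM, low-count filter, library as a block), 6 populations in 1 fit and 3 endothelial subtypes of the metaphyseal libraries in another, with Benjamini-Hochberg adjustment over all genes tested and a threshold of 0.05. The script was tested on simulated data first. The library number pairs populations of 1 suspension (correlation of deviations 0.128 to 0.745). Each SE is the absolute edgeR log2 fold change divided by the square root of the test's F statistic, not an error taken from the fit. Intervals at 95% and floors of 3 counts cover counting error only. Named members are the 12 with the highest mean over 5 mesenchymal populations and those past the threshold, with *Pitx1*, *Tbx4*, *Tbx5*, *Shox2*, *Meis1*, *Meis2* and *Prrx1* of the partner lists; members outside this rule and other list genes were named after their values were seen, and 1 gene of the rule is not reported here. DESeq2 1.42.0, other gates, filters, doublet removal and left-out libraries were alternatives, and library totals as the scale, sums of 5 cells and the *Pdgfra-GFP* library in the subtype fit were added after seeing the data.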

Additional observations from a re-analysis of the deposited data

How the results depend on the processing

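Of 736 values of called members under changes of normalization, filter, gate, doublets and library, 666 kept direction and call, 69 lost the call and 1 reversed. The reversed value was *Hoxb5* in chondrocyte-like cells (-2.36), at 0.0029 without the *Pdgfra-GFP* library, where neither population had a UMI of it; without metaphyseal replicate 1 it was -2.44. The share of all genes called under each change is not given here, so counts of members are not set against it. The count of members called moved by more than 1.5 times as follows. Without the replicate block, dpMSC-like calls went from 6 to 1 and OB-like calls from 7 to 4. With library totals in place of TMM factors, chosen after seeing the data, OB-like calls went from 7 to 12. With only the 2 populations in the fit, chondrocyte-like calls went from 11 to 2 and SC-like calls from 0 to 1, where 8 and 7 members were tested in place of 28. SC-like calls were also 1 with no filter on low counts, with the stricter gate, with the looser gate and with sums of 5 cells, the last also chosen after seeing the data. DESeq2 gave 1 mpEC-like and 2 aEC-like calls in place of 4 each, and the stricter gate gave 2 aEC-like calls. Leaving out 1 library gave 2 to 5 calls for dpMSC-like, 0 to 1 for SC-like, 4 to 7 for OB-like, 3 to 9 for chondrocyte-like and 21 to 23 for EC-like cells. The block changed no count of calls past this limit in the other comparisons. The summed *Hox* level of mpMSC-like cells was 454 CPM with the stricter gate against 420 CPM. Endothelial subtypes were not fitted without 1 of their 2 libraries, since that leaves no residual degrees of freedom; adding the *Pdgfra-GFP* library, chosen after seeing the data, gave 4 calls in each comparison. SC-like sums of 11 and 193 cells, and members under 10 UMIs, limit what can be detected. The causes were not tested.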
